A study of Mus musculus with 12 samples.

Results

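The reproductive homeobox (Rhox) genes lie side by side on the mouse X chromosome and encode homeodomain proteins, most of which are made in the placenta, testis and ovary. They are grouped by position into an alpha part (Rhox1 to the tandem copies of Rhox2, Rhox3 and Rhox4), a beta part (Rhox5 to Rhox9) and a gamma part (Rhox10 to Rhox13). In the embryo proper the cluster is known to be silenced through DNA methylation, while embryonic stem cells and the trophoblast lineage keep some of its members on.

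RNA was measured on 12 single-colour Agilent arrays, whose probes are DNA strands of 60 bases that are each designed for a named transcript. The genes described were Rhox1, Rhox4b, Rhox5, Rhox6, Rhox9, Rhox10 and Rhox13, and every probe carrying one of these 7 names was taken. There were 6 such probes among 55681 that are not controls, 1 for each gene except Rhox4b, which has no probe of its own name. A further 19 probes carried other Rhox names, so that the cluster had 25 probes under 20 gene names in all. The 7 genes were chosen with earlier results of these arrays known, so their own values are given as a description with no test. The 19 other probes were taken by name alone, and tests were made for those that passed a filter on background.

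The arrays came from 2 kinds of mouse pluripotent cells. Mouse embryonic stem cells (mESC) gave 4 arrays labelled Tbx3-low and 4 labelled Tbx3-high, and induced pluripotent stem cells (iPSC) gave 2 arrays labelled Tbx3 null and 2 labelled Tbx3 wildtype. Tbx3 encodes a DNA-binding factor of the T-box family, and the title of the study names its role in pluripotency as the question. Not given in the sources used here are the way in which cells of high and low Tbx3 were distinguished, the extent of the null allele, the sex and strain of the cells, and whether replicates were grown as separate cultures or clones. A p-value therefore measures the spread between these arrays, which may be technical.

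The Tbx3 probe was 2.51-fold higher in the Tbx3-high mESC, a log2 difference of 1.33 ± 0.08 (SE, n = 4 and 4). In the iPSC labelled Tbx3-null it was 0.32 ± 0.11 higher than in wild type on the log2 scale (SE, n = 2 and 2; limma adjusted p = 0.0482), so these are called the null-labelled iPSC throughout; without knowledge of the deleted part this probe does not check the label. The 75th percentile of the signal, the unit to which every level below is set, was 314 to 458 scanner units in the mESC and 699.8 to 1007 in the iPSC. No spot was saturated, and 55.9% to 68.6% of spots were well above background. All 10 markers of pluripotent stem cells were above background on every array. The mESC and iPSC arrays lay on separate slides, so levels were not compared between them, and within each slide the groups occupied different columns, so column and group cannot be told apart.

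Of the 25 Rhox probes, 14 were well above background on all 12 arrays, among them all 6 of the chosen genes, and 6 were so on no array. The latter were Rhox3e, Rhox11, Rhox12, 2 of 3 Rhox3f probes and 1 of 2 Rhox7 probes, and they entered no test. In the mESC, 3 of the 6 chosen probes had lower values on every Tbx3-high array than on every Tbx3-low array and 3 overlapped; over all 30691 probes that passed the same filter, 12.8% were lower without overlap, 16.5% higher and 29.2% either. In the iPSC, 3 were lower in both null-labelled arrays, 2 were higher in both and 1 overlapped, beside 29.6% lower, 36.9% higher and 66.4% either over 36712 probes. These shares stand as the background only, since the genes were chosen with such values in view.

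The probes on which the results turn are shown by their last 30 bases, 5′ to 3′ in the sense of the transcript. The files place them on the X chromosome of build mm9 at chrX:35182945-35183004 (+) for Rhox6, chrX:35254147-35254206 (−) for Rhox9, chrX:35424740-35424799 (+) for Rhox10, chrX:34868719-34868778 (+) for Rhox2c, chrX:34956112-34956171 (+) for Rhox2e, chrX:35083570-35083629 (−) for Rhox2h, chrX:34809907-34809966 (+) for Rhox4a and chrX:35061172-35061231 (−) for Rhox4g. The Rhox4a and Rhox4g strands match at 58 of their 60 bases, and capitals mark the bases that differ between them.
Rhox6: gccatgacaaccttttcttctctacaatta
Rhox9: tctggagcgccttttccaagagaatcgctt
Rhox10: agggttcattgtgtgccagcaacatcttgg
Rhox2c: ggttggcaacagagcttcaatgtgctgcaa
Rhox2e: atgctcagaggtcctcttcctgcttcccac
Rhox2h: tcaagtcactgtagacagacgatgttgtgc
Rhox4a: agtcagttaggaatgaatgatgaCgccTct
Rhox4g: agtcagttaggaatgaatgatgaTgccCct
The Rhox2c strand is listed for Rhox2c, Rhox2b, Rhox2e and Rhox2a, the Rhox2e strand for Rhox2e, Rhox2f, Rhox2c and Rhox2b, and the Rhox2h strand for Rhox2h, Rhox2a, Rhox2g and Rhox2d. The Rhox4g strand is listed for Rhox4g, Rhox4e, Rhox4f and Rhox4b, and is thus the probe listed for Rhox4b. Whether the near-identical Rhox4a strand also takes up Rhox4b transcripts was not tested. Values of these probes are sums over copies that the array cannot separate, and probes of 1 copy family are not independent of each other.

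Rhox6 and Rhox9 are placental homeobox genes of the beta part, also known as Psx1 and Psx2, and are found in germ cells as well. Both were about an order of magnitude lower in Tbx3-high than in Tbx3-low mESC, and both were higher in the null-labelled than in the wild-type iPSC. For Rhox6 the log2 level relative to the 75th percentile of the array was 2.65, 2.60, 2.62 and 2.64 on the Tbx3-low arrays and -0.85, -0.80, -0.88 and -0.76 on the Tbx3-high arrays. All 4 Tbx3-low values were high and all 4 Tbx3-high values low, with no overlap and little spread within either group. The scanner signals behind them ran from 2017 to 2482 in the Tbx3-low and from 185 to 253 in the Tbx3-high arrays. The difference was -3.45 ± 0.08 (SE), 10.9-fold lower, and it was -3.45 in each of the 2 rows of the slide taken alone.

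Rhox9 had log2 levels of 2.66, 2.56, 2.86 and 2.81 in the Tbx3-low mESC and of -0.50, -0.66, -0.41 and -1.15 in the Tbx3-high mESC. The groups again stood far apart, and the Tbx3-high replicate 4 was the lowest of its group. The difference of -3.40 ± 0.15 (SE) was 10.6-fold lower in the Tbx3-high cells, with -3.19 in slide row 1 and -3.61 in row 2. Among all probes of this comparison, 3.86% were at least 2-fold apart either way, 2.15% were at least 2-fold lower and 0.104% at least 8-fold lower.

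In the iPSC too, the group with less Tbx3 by label had the higher Rhox6 and Rhox9 levels, although its Tbx3 probe was not lower. Rhox6 had log2 levels of 2.09 and 2.02 in the null-labelled arrays and of 0.84 and 1.20 in the wild-type arrays, and Rhox9 had 2.17 and 1.99 against 0.85 and 1.20. Both null-labelled arrays were above both wild-type arrays for both genes. The differences were 1.04 ± 0.11 (SE, 2.05-fold higher) for Rhox6 and 1.05 ± 0.23 (SE, 2.08-fold higher) for Rhox9, while 11.8% of all probes were at least 2-fold apart either way. As everywhere in such bulk RNA, fewer cells carrying a transcript and less of it per cell cannot be told apart.

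Marker lists of other cell types were read beside Rhox6 and Rhox9. The summed signal of 10 trophoblast markers, in multiples of the 75th percentile of the array, was 34.2 to 36.1 in Tbx3-low and 17.7 to 21.3 in Tbx3-high mESC, and 28.4 to 30.5 in null-labelled and 23.3 to 25.1 in wild-type iPSC. The trophoblast genes Elf5 and Tpbpa were above background on no array. Of 7 trophoblast markers tested in the mESC, 4 fell and 1 rose, and in the iPSC 2 of 7 fell and 2 rose with a median of 0.09. Over all genes 31.6% passed in the mESC and 35.6% in the iPSC. Of the markers, 3 are named here after their values were seen. The transcription factors Gata3 and Tfap2c fell in the mESC, at -1.57 and -1.40 on the log2 scale (limma adjusted p = 4.11e-07 and 1.08e-06). Eomes, which is needed for trophoblast stem cells, rose by 1.39 ± 0.10 (SE, adjusted p = 4.48e-06). Summed germ cell markers were at 21.4 to 25.6 in Tbx3-low and 15.8 to 17.8 in Tbx3-high mESC, with 7 of 10 fallen and 1 risen. In the iPSC these sums ran against Rhox6 and Rhox9, at 30.3 to 31.0 in the null-labelled and 77.9 to 81.0 in the wild-type arrays. The part of either cell type in the Rhox6 and Rhox9 values was not tested.

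**Figure D1:**
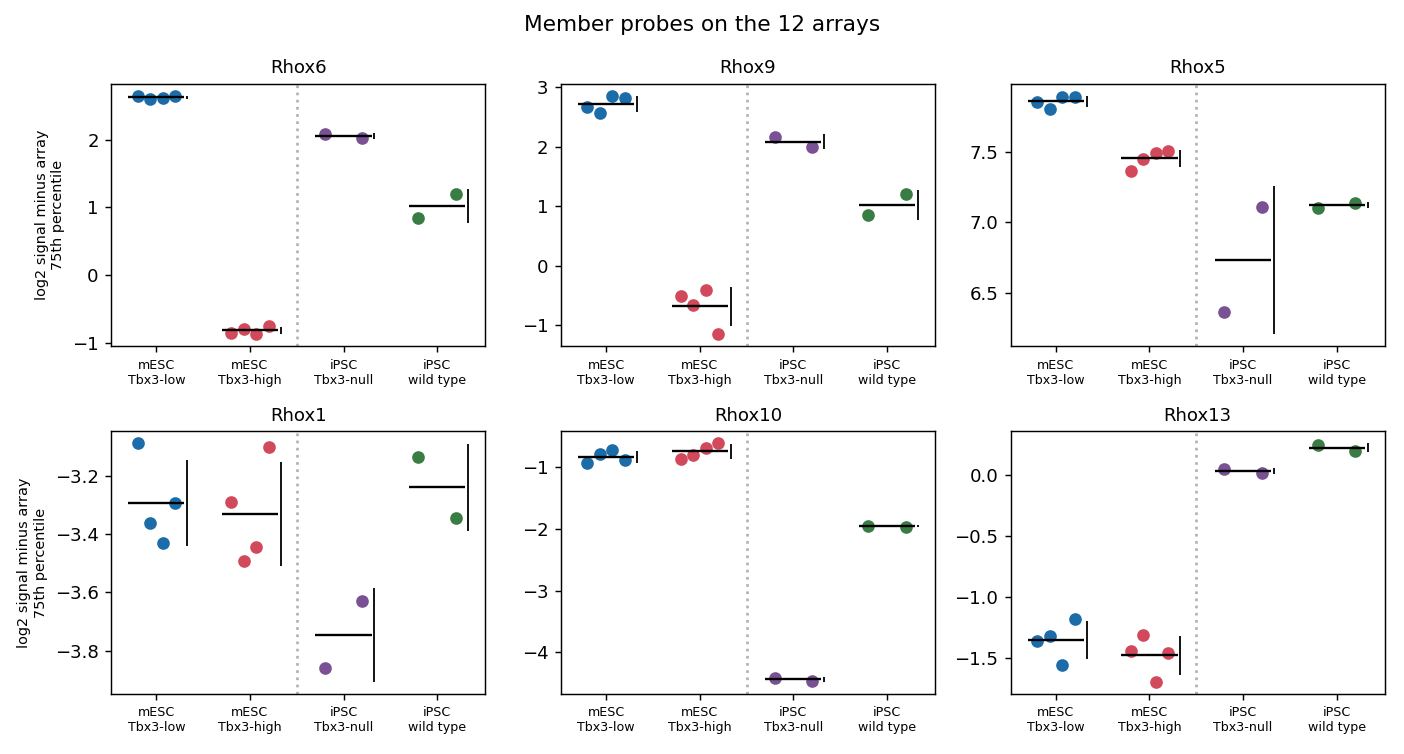
Levels of Rhox6, Rhox9, Rhox5, Rhox1, Rhox10 and Rhox13 on each array, as log2 signal minus the 75th percentile of the array, with a scale of its own in every panel. Points are arrays, all filled because each was well above background, horizontal lines are group means and vertical bars are SD. Rhox6 and Rhox9 stand near 2.6 to 2.7 in the Tbx3-low and below 0 in the Tbx3-high mESC, and Rhox10 is far lower in the null-labelled than in the wild-type iPSC.

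Rhox5, also called Pem, is a beta gene made by Sertoli cells under androgen control and by embryonic stem cells. Its transcript was strongly detected in all 4 groups, with signals from 56433 to 138656 scanner units. In the mESC its log2 levels were 7.85, 7.80, 7.88 and 7.89 on the Tbx3-low and 7.36, 7.45, 7.49 and 7.50 on the Tbx3-high arrays. The groups did not overlap, yet the difference was small beside that of Rhox6 and Rhox9, at -0.40 ± 0.13 (SE, 1.32-fold lower). This SE rests on a spread shared by the 4 groups. The SD was 0.04 in the Tbx3-low and 0.06 in the Tbx3-high mESC, and 0.52 in the null-labelled and 0.02 in the wild-type iPSC. In the iPSC its levels were 6.36 and 7.11 in the null-labelled and 7.10 and 7.14 in the wild-type arrays, so the groups overlapped. The difference of -0.39 ± 0.18 (SE) rested on 1 null-labelled array, since it was -0.02 without null-labelled replicate 1, -0.76 without replicate 2, -0.69 in the series table and -0.63 with quantile normalisation. The file gives no genome position for this probe.

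The other beta genes were dim or did not pass the test. Rhox8, a gene of Sertoli cells, had 2 probes. One of them, at chrX:35231462-35231521 (−) in mm9, is largely a repeat of AAG, marked by capitals in its whole sequence, and is shown because of that repeat.
Rhox8 repeat probe: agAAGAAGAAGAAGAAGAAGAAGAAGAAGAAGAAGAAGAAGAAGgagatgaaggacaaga
Its signal ran from 8550 to 34954 scanner units, and levels of different probes were not compared. Whether this signal comes from Rhox8 transcripts alone was not tested. The probe with the repeat differed by 0.18 ± 0.23 (SE, limma adjusted p = 0.622) in the mESC and by -0.77 ± 0.34 (adjusted p = 0.121) in the iPSC. Among its 13 alternatives in the iPSC, 4 passed, with adjusted p of 0.0300 by normexp, 0.0153 in the series table, 0.0157 in the iPSC arrays alone and 0.0121 with a replicate block. The other Rhox8 probe differed by -0.10 ± 0.11 (adjusted p = 0.563) and 0.08 ± 0.16 (adjusted p = 0.782). The Rhox7 probe above background differed by -0.08 ± 0.19 (adjusted p = 0.805) in the mESC and by -0.07 ± 0.27 (adjusted p = 0.895) in the iPSC.

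In the alpha part, all tested Rhox2 probes and 2 of the 3 Rhox4 probes fell in the null-labelled iPSC, and 1 Rhox2 probe and all 3 Rhox4 probes fell in the Tbx3-high mESC. Of 13 other Rhox probes tested in the iPSC, 6 fell, 0 rose and 7 did not pass; over all probes 28.3% passed, 12.9% as lower and 15.5% as higher. Of 11 tested in the mESC, 4 fell, 0 rose and 7 did not pass, against 25.9% of all probes passing, 11.4% as lower and 14.5% as higher. The 6 and the 4 hold only Rhox2 and Rhox4 names, so each is a count of a few copy families and not of separate genes. In the iPSC, Rhox4a, Rhox4g and a Rhox2h probe listed for that copy alone passed the filter only through the wild-type arrays. In the mESC, Rhox2c, Rhox4a and Rhox4g passed it only through the Tbx3-low arrays. For these probes a rise was hardly possible, so their falls add no support to the counts.

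Rhox1 opens the cluster at chrX:34753955-34754014 (−) in mm9. It lay near the lower end of the measured range, at -3.09, -3.36, -3.43 and -3.29 in the Tbx3-low and -3.29, -3.49, -3.44 and -3.10 in the Tbx3-high mESC. These groups overlapped fully, with a difference of -0.04 ± 0.11 (SE). In the iPSC Rhox1 was at -3.86 and -3.63 in the null-labelled and at -3.13 and -3.34 in the wild-type arrays. Both null-labelled values were lower, by 1.42-fold in the mean (-0.51 ± 0.16, SE), and the difference shrank to -0.24 with normexp background correction.

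The Rhox2 probes stood well apart between the iPSC groups. Their functions are less well described than those of Rhox5. The Rhox2c probe was at log2 levels of -2.63 and -2.20 in the null-labelled and of 0.82 and 1.03 in the wild-type iPSC, with signals of 149 and 152 against 1779 and 1880. Both null-labelled arrays were far below both wild-type arrays. The Rhox2c probe fell by 3.34 ± 0.33 (SE, limma adjusted p = 4.59e-05), 10.1-fold.

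The Rhox2e probe had log2 levels of -2.81 and -2.45 against 0.39 and 0.31, and the Rhox2h probe listed for 4 copies had -2.11 and -1.52 against 1.69 and 1.59. Neither overlapped between the groups. Rhox2e fell by 2.98 ± 0.14 (SE, adjusted p = 2.57e-07), 7.88-fold, and Rhox2h fell by 3.45 ± 0.32 (adjusted p = 3.09e-05). The Rhox2c, Rhox2e and 4-copy Rhox2h calls held in all 13 alternatives. A second Rhox2h probe, listed for Rhox2h alone, was above background on 1 of 2 null-labelled arrays and fell by 2.97 ± 0.70 (adjusted p = 0.0102). That last call was lost without null-labelled replicate 1 (-2.35, adjusted p = 0.0863) and without wild-type replicate 2 (-2.89, adjusted p = 0.0548), and the value was -1.19 with normexp and -1.42 in the series table.

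In the mESC the signals of the same probes were low. Rhox2c was at -3.58, -3.79, -3.52 and -4.17 in Tbx3-low and at -4.57, -4.39, -4.72 and -5.46 in Tbx3-high cells, where 2 of 4 arrays were above background. All Tbx3-high values were below all Tbx3-low values. It fell by 1.02 ± 0.22 (SE, adjusted p = 0.00641), but the value was -0.18 with normexp (adjusted p = 0.274), -0.32 in the series table (adjusted p = 0.0177) and -1.25 in slide row 2 alone (adjusted p = 0.101). Rhox2e differed by -0.19 ± 0.10 (adjusted p = 0.189). The 4-copy Rhox2h probe differed by -0.56 ± 0.22 (adjusted p = 0.0864), and passed in 5 of its 20 alternatives, by quantile normalisation (0.0423), array weights (0.0423), a replicate block (0.0307), a slide-row block (0.0215) and with the removal of Tbx3-high replicate 1 (0.0463).

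Rhox4 copies, 1 of which was described as Ehox, are known from embryonic stem cells and placenta. The Rhox4g probe, which lists Rhox4b, was at -3.43, -3.06, -3.18 and -3.02 in the Tbx3-low and at -5.41, -4.72, -6.54 and -4.92 in the Tbx3-high mESC. It was above background on every Tbx3-low and on no Tbx3-high array, so only a bound can be given: it was at least 3.32-fold lower in the Tbx3-high cells (adjusted p = 0.00041). In the iPSC it was at -6.65 and -6.75 in the null-labelled arrays, both not above background, and at -3.49 and -3.40 in wild type. It was at least 3.88-fold lower in the null-labelled cells (adjusted p = 0.000529). The call held in the 12 alternatives that kept the probe. A stricter filter, which needs both groups above background, left the probe out, so the call was not tested there. The fitted log2 difference was -3.26, and it was -0.60 with normexp and -0.81 in the series table. In an "at least" fold, an array of the dim group counts at its own value or at its detection floor, whichever is higher. The floor is the array's smallest signal that cleared background. For Rhox4 such a fold is a minimum within the main processing only, since normexp and the series table gave smaller differences.

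The Rhox4a probe, whose strand matches that of Rhox4g at all but the bases in capitals above, was at -3.21, -3.44, -3.37 and -1.07 in the Tbx3-low and at -4.80, -5.03, -6.40 and -4.94 in the Tbx3-high mESC. The groups did not overlap, Tbx3-low replicate 4 stood above its group, and 1 of 4 Tbx3-high arrays was above background. The difference was -2.52 ± 0.53 (SE, adjusted p = 0.00503), and -1.95 without Tbx3-low replicate 4 (adjusted p = 0.0036). In the iPSC it was at -7.10 and -6.18 in the null-labelled and at -3.40 and -3.36 in the wild-type arrays, at least 4.05-fold lower (adjusted p = 0.0107). That call was lost in 5 of 12 alternatives: normexp (-0.71, adjusted p = 0.0881), the series table (-0.99, 0.0515), and without null-labelled replicate 1 (0.0797), wild-type replicate 1 (0.0553) or wild-type replicate 2 (0.0524). The stricter filter left this probe out as well.

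Rhox4e, the third Rhox4 name, lies at chrX:34971934-34971993 (+) in mm9 and its probe lists Rhox4e alone. Of the 60 bases of this probe, 35 are a repeat of TTTCGGC. A similar repeat stands just before the start of Rhox4a in RefSeq sequence. Whether the probe takes up transcripts of other copies was not tested. Its levels were -2.63, -2.78, -2.37 and -3.14 in Tbx3-low and -3.55, -3.22, -3.64 and -3.61 in Tbx3-high mESC, with no overlap. It fell by 0.77 ± 0.16 (SE, adjusted p = 0.00515), while in the iPSC it differed by -0.38 ± 0.24 (adjusted p = 0.285). The mESC call was lost with normexp (-0.29, adjusted p = 0.0805) and in slide row 1 (0.0567) or row 2 (0.128) alone. With normexp and in the series table the mESC differences of Rhox4g were -0.47 and -0.68 and those of Rhox4a -0.71 and -1.01, and these kept their calls, while row 2 alone gave adjusted p of 0.0639 for Rhox4g and 0.0975 for Rhox4a.

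The Rhox3 copies gave no call in either comparison. The Rhox3f probe above background differed by 0.04 ± 0.15 (adjusted p = 0.892) in the mESC and by -0.30 ± 0.22 (adjusted p = 0.352) in the iPSC. Rhox3h differed by 0.17 ± 0.17 (adjusted p = 0.517) and by -0.52 ± 0.25 (adjusted p = 0.164), and the latter passed in the series table (-0.33, adjusted p = 0.0325). Rhox3a, tested in the iPSC only, differed by -0.87 ± 0.56 (adjusted p = 0.298).

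**Figure D2:**
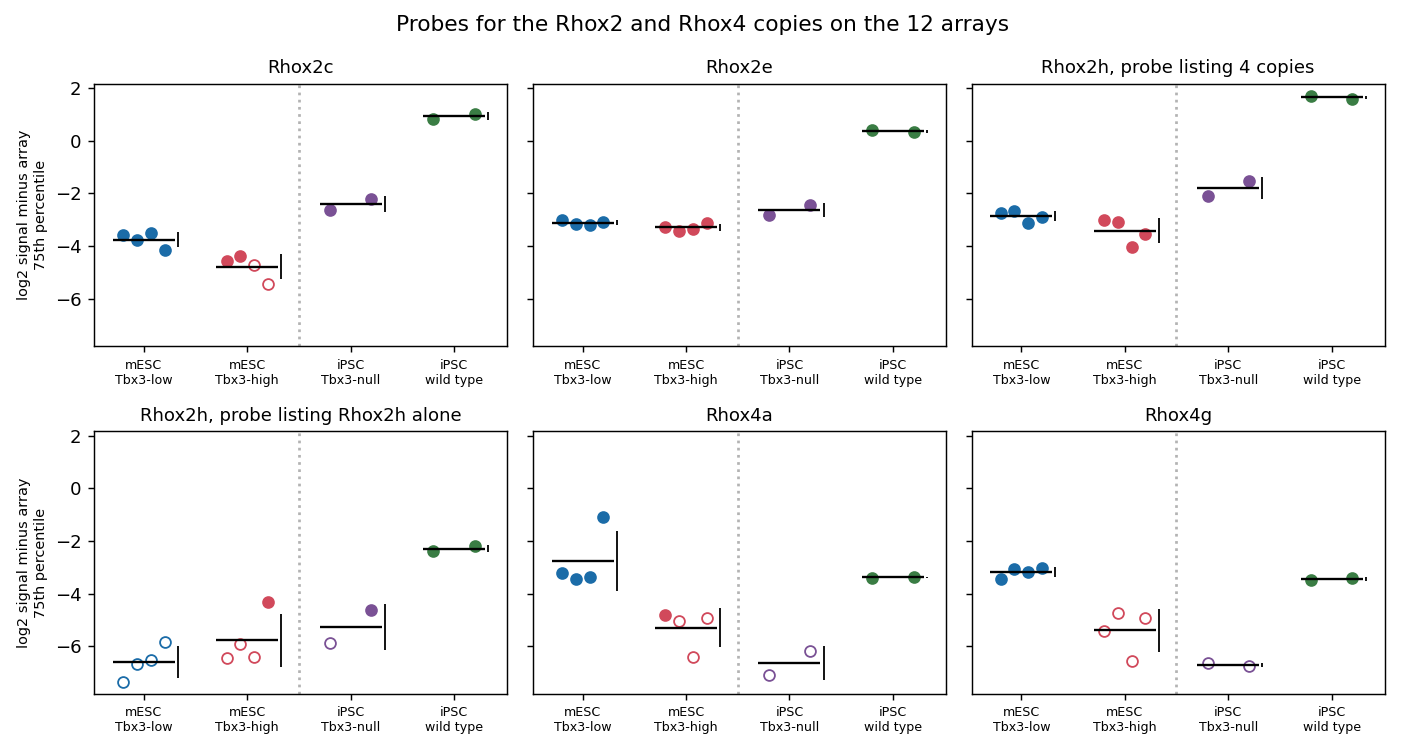
Levels of 6 Rhox2 and Rhox4 probes on each array, as log2 signal minus the 75th percentile of the array on a shared scale. The Rhox4e probe is not shown. Points are arrays, lines are group means, bars are SD and open circles are arrays not well above background. For the Rhox2 probes the wild-type iPSC stand above the null-labelled iPSC, and for Rhox4a and Rhox4g the Tbx3-high mESC and the null-labelled iPSC hold the open circles.

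Both comparisons were set so that a positive value would mean higher with more Tbx3 by label, and the difference between (Tbx3-high minus Tbx3-low) in the mESC and (wild type minus null-labelled) in the iPSC was tested for 13 other Rhox probes. Of these 6 passed, all as lower, and 7 did not. Over all probes 23.0% passed, 10.1% as lower and 12.8% as higher. Rhox4a and Rhox4g passed the filter only through the Tbx3-low and wild-type arrays, which enter this difference with a minus sign. For them a rise was hardly possible, so they add no support to the count. The difference was -4.36 ± 0.40 (SE, adjusted p = 5.5e-05) for Rhox2c, -3.16 ± 0.17 (1.44e-06) for Rhox2e and -4.01 ± 0.39 (8.25e-05) for the 4-copy Rhox2h probe. It was -5.77 ± 0.95 (0.00199) for Rhox4a, -5.48 ± 0.57 (0.000119) for Rhox4g and -1.16 ± 0.29 (0.0181) for Rhox4e. For each of these probes, the mean was lower with high Tbx3 by label in the mESC and higher with it in the iPSC, although Rhox2e and the 4-copy Rhox2h probe did not pass in the mESC, nor Rhox4e in the iPSC. The Rhox4a and Rhox4g values rest on dim arrays: with signals raised to this floor they were -4.06 (0.00269) and -3.69 (2.3e-06), with normexp -1.42 (0.0106) and -1.07 (0.000604), and in the series table -2.00 (0.00439) and -1.49 (1.28e-06). The probe listing Rhox2h alone was at -2.15 ± 0.86 (0.104) and passed in 5 of 20 alternatives. The Rhox3a, Rhox3f, Rhox3h, Rhox7 and both Rhox8 probes ran from -0.59 to -0.02 and did not pass (0.358 to 0.951). The Rhox4e value lost its call without null-labelled replicate 1 (0.0797), without wild-type replicate 2 (0.0818) and with normexp (-0.34, adjusted p = 0.23).

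**Figure D3:**
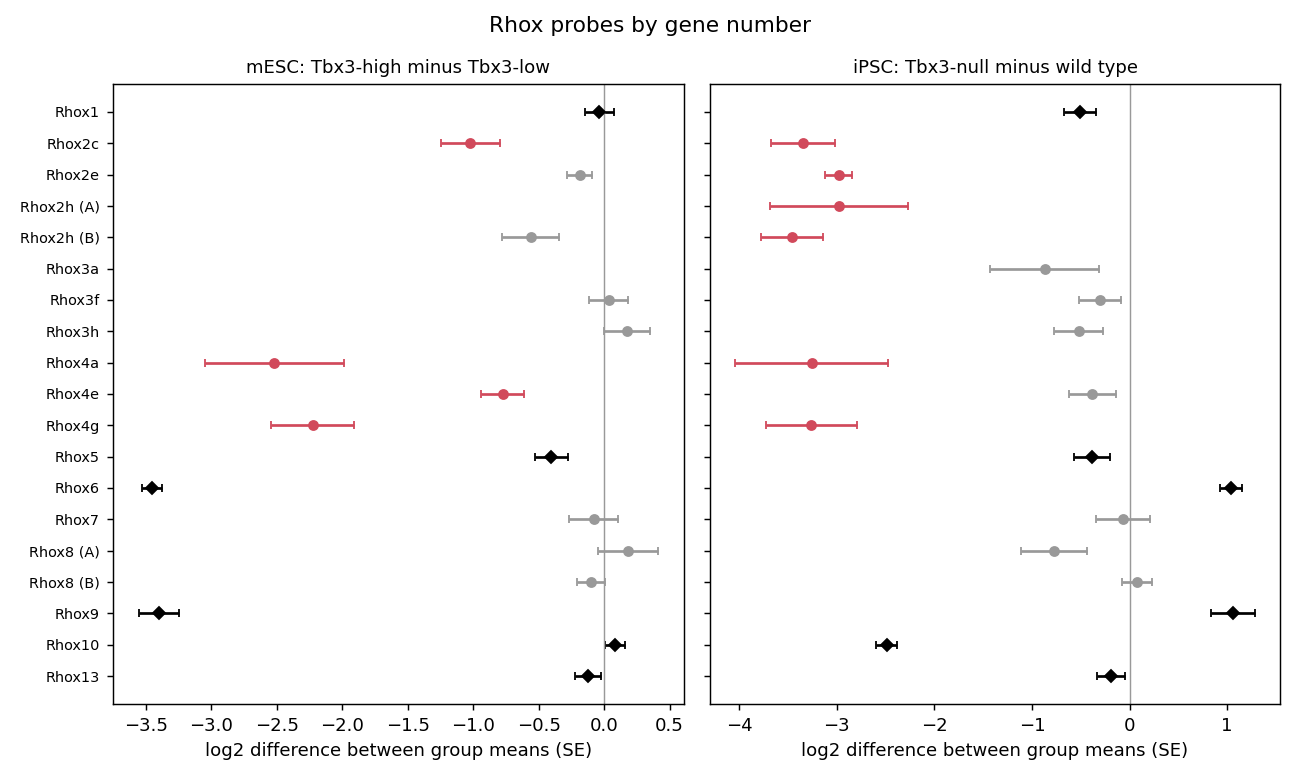
Log2 differences with SE of the 19 Rhox probes that passed the filter on background in at least 1 comparison, in the order of their gene numbers. Tbx3-high minus Tbx3-low mESC is on the left and null-labelled minus wild-type iPSC on the right, with axes that differ. Black diamonds are the chosen genes, which have no test, red points passed at an adjusted p under 0.05 and grey points did not; (A) and (B) mark the probe listing Rhox2h alone and the 4-copy probe, and the repeat and other probe of Rhox8. The chosen genes furthest from 0 are Rhox6 and Rhox9 in the mESC and Rhox10 in the iPSC.

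In the gamma part, Rhox10 is known for its role in spermatogonia, the stem and progenitor cells of the testis. Its mESC groups overlapped, at -0.94, -0.79, -0.72 and -0.88 in Tbx3-low and -0.87, -0.80, -0.69 and -0.61 in Tbx3-high cells, a difference of 0.09 ± 0.08 (SE). In the iPSC it was at -4.41 and -4.47 in the null-labelled arrays and at -1.95 and -1.96 in the wild-type arrays, with signals of 43.5 and 31.7 against 261 and 237. Both null-labelled arrays were far lower, and the spread within each group was small. The difference was -2.48 ± 0.11 (SE, 5.60-fold lower), which was -1.25 with normexp background correction, -1.42 in the series table and -2.37 with quantile normalisation. Among all probes 8.05% were at least 2-fold lower and 0.932% at least 8-fold lower. Beside the Rhox10 values, summed germ cell markers were at 30.3 to 31.0 in the null-labelled and at 77.9 to 81.0 in the wild-type iPSC, with 5 of 8 tested markers fallen and 0 risen, and their part in the Rhox10 value was not tested.

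Rhox13, a germ cell member whose probe spans an intron (chrX:35474985-35476295, +, in mm9), was at -1.35, -1.32, -1.55 and -1.18 in Tbx3-low and at -1.44, -1.31, -1.69 and -1.45 in Tbx3-high mESC. These groups overlapped, with a difference of -0.12 ± 0.10 (SE). In the iPSC its levels were 0.05 and 0.01 in the null-labelled and 0.25 and 0.20 in the wild-type arrays. Both null-labelled values were lower, by 1.14-fold in the mean (-0.19 ± 0.14, SE). The value was -0.10 with normexp and -0.12 in the series table.

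The promoters of the copies that fell together in the iPSC were compared in RefSeq sequence of build GRCm38.p6, in windows of 300 bases from 250 before to 50 after the start. Of 42 Rhox genes in the RefSeq table, 28 had a window; Rhox6, Rhox7, Rhox8 and Rhox9 are not among them and none of the counts below covers them. The 28 held 0 to 12 CG pairs with a median of 7, beside a median of 7 and quartiles of 3 and 20 over 32851 windows of all genes. The Rhox4 copies held 10 to 12, the Rhox2 copies 5 to 9 and the Rhox3 copies 2 to 4. The ETS core CCGGAA, searched on both strands, was in 8 of the 28 Rhox windows, namely all 7 of Rhox2 and that of Rhox5, and in 14.9% of all windows. ETS factors bind such cores, and GABP, an ETS factor, has been reported at the Rhox5 promoter. The T-box motif AGGTGTGA, searched as an exact match on both strands, was in 0 of 28 and in 1.28% of all windows. Near matches were not counted. The Rhox2c and Rhox2h stretches below hold aggtgtgg, which differs from it in the last base. Copies share their sequence and are not independent, and a match is a description of letters.

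The 250 bases upstream of the start are printed below for Rhox2c (chrX:37453409-37453658, +), Rhox2h (chrX:37673278-37673527, −), Rhox5 (chrX:37754358-37754607, +) and Rhox10 (chrX:38066225-38066474, +). They show how alike 2 Rhox2 copies are, how the same core sits in Rhox5, and the CG pairs of Rhox10. Capitals mark the ETS core with its palindrome in Rhox2c and Rhox2h and its 6-base stretch in Rhox5, and each CG pair in Rhox10. The Rhox2c and Rhox2h stretches match at 238 of 250 bases.
Rhox2c: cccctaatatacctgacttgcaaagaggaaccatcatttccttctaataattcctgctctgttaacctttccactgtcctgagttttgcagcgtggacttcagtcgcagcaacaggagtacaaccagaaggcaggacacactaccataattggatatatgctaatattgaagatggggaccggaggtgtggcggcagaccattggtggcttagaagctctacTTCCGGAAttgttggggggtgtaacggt
Rhox2h: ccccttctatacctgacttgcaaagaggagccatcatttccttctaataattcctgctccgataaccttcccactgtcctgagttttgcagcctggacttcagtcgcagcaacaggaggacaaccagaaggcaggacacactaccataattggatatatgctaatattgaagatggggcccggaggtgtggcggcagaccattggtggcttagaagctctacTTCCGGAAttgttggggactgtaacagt
Rhox5: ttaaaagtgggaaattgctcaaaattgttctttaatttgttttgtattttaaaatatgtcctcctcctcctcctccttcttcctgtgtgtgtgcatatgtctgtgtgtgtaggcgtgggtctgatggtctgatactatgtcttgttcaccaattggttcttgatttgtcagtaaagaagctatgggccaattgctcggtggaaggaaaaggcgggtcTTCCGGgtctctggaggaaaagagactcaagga
Rhox10: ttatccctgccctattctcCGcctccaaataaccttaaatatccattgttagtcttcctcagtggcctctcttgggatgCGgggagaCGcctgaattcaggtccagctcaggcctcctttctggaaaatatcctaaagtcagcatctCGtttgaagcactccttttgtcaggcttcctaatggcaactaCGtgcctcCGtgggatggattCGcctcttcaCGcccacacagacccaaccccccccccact

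Genes beside the cluster were looked at to see whether the differences ran past it. Of the 20 nearest genes, 10 on each side, 10 were tested by their brightest probe. In the mESC 7 fell, 0 rose and 3 did not pass, with a median difference of -0.32; over all 15186 genes 31.6% passed, 17.4% as higher and 14.2% as lower, and the median over all probes was 0.04. Gm9, before Rhox1, fell by 3.04 ± 0.08 (SE, adjusted p = 3.22e-09), and Cul4b, the scaffold of a ubiquitin ligase after Rhox13, by 0.97 ± 0.10 (adjusted p = 5.04e-05). Mcts1, a translation re-initiation factor, fell by 0.35 ± 0.06 (adjusted p = 0.00119) and Nkap by 0.33 ± 0.07 (adjusted p = 0.0042). The count of 7 was 2 in either slide row alone.

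In the iPSC 3 neighbours rose, 2 fell and 5 did not pass, with a median of 0.17 beside 0.05 over all probes and beside 35.6% passed, 20.2% higher and 15.4% lower, over 16828 genes. Gm9 fell by 2.54 ± 0.11 (adjusted p = 1.68e-07) and Lamp2, a lysosomal membrane protein, by 0.44 ± 0.12 (adjusted p = 0.0195). Ndufa1, a subunit of respiratory complex I, rose by 0.53 ± 0.09 (adjusted p = 0.00148), Mcts1 by 0.29 ± 0.08 (adjusted p = 0.0221) and Rnf113a1 by 0.59 ± 0.18 (adjusted p = 0.0306). The numbers that rose and fell were 1 and 1 without null-labelled replicate 1, without wild-type replicate 1 or without wild-type replicate 2, 2 and 1 without null-labelled replicate 2, and 0 and 1 in a fit of the iPSC arrays alone, while without the filter on dim probes 1 rose and 2 fell. Zbtb33 (Kaiso), a methyl-CpG binding repressor that lies inside the cluster's span, fell by 0.35 ± 0.09 (adjusted p = 0.0174) in the mESC and differed by -0.25 ± 0.13 (adjusted p = 0.201) in the iPSC. The mESC call for Zbtb33 was lost in 4 of 20 alternatives: without Tbx3-low replicate 4, without the filter on dim probes and in either slide row alone. Btg1c, also inside it, differed by 0.07 ± 0.07 (adjusted p = 0.564) and by 0.27 ± 0.11 (adjusted p = 0.0815).

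DNA methylation is the known silencer of Rhox genes, and 25 genes of the DNA and histone H3K9 methylation machinery were read beside them. In the mESC 3 rose, 6 fell and 16 did not pass, with a median of -0.06, beside 17.4% of all genes higher and 14.2% lower. Dnmt3b, a methyltransferase that sets new methylation and acts on the cluster in embryos, fell by 0.35 ± 0.08 (adjusted p = 0.0109), and its cofactor Dnmt3l rose by 0.35 ± 0.08 (adjusted p = 0.00746). Dppa3, which protects DNA from such marks in the egg and moved most, fell by 3.21 ± 0.09 (adjusted p = 4.86e-09). The H3K9 methyltransferase Suv39h1 fell by 0.54 ± 0.07 (adjusted p = 0.000319), and the imprint-protecting zinc finger protein Zfp57 and the methylcytosine oxidase Tet2 rose by 1.09 ± 0.12 (adjusted p = 8.2e-05) and 0.89 ± 0.11 (adjusted p = 0.000132). In the iPSC 8 rose, 0 fell and 17 did not pass, with a median of 0.30, beside 20.2% higher and 15.4% lower. Dnmt3b rose by 1.13 ± 0.12 (adjusted p = 7.53e-05), Dnmt3l by 1.08 ± 0.11 (adjusted p = 6.35e-05) and Dppa3 by 3.38 ± 0.12 (adjusted p = 4.81e-08). Uhrf2, a relative of the maintenance factor Uhrf1, rose by 1.32 ± 0.12 (adjusted p = 2.23e-05). The maintenance enzyme Dnmt1 differed by -0.06 ± 0.10 (adjusted p = 0.689) in the mESC and by 0.30 ± 0.14 (adjusted p = 0.139) in the iPSC, and Dnmt3a, the partner of Dnmt3b, by -0.32 ± 0.13 (adjusted p = 0.101) and by 0.49 ± 0.19 (adjusted p = 0.0915). In the slide rows alone, 3 and 2 genes of the list fell in the mESC, and without wild-type replicate 1 5 rose in the iPSC.

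Factors and linker histones that have been reported to act on Rhox genes mostly gave no call. Of 12 tested in the mESC, 2 rose, 0 fell and 10 did not pass, with a median of 0.07, where 31.6% of all genes passed. The risers were the linker histones H1f0, at least 1.62-fold higher (adjusted p = 7.57e-05), and H1f10, at 0.38 ± 0.10 (adjusted p = 0.0165). H1f0 passed the filter only through the Tbx3-high arrays. A fall was hardly possible for it, so its rise adds no support to the count. Of 13 tested in the iPSC, where 35.6% of all genes passed, H1f10 rose by 0.49 ± 0.15 (adjusted p = 0.0303), H1f2 fell by 0.51 ± 0.14 (adjusted p = 0.0171) and 11 did not pass, H1f0 among them at 0.49 ± 0.38 (adjusted p = 0.402). Both iPSC calls were lost without null-labelled replicate 1 and without wild-type replicate 1, and that of H1f10 also without either of the other iPSC arrays. Gabpa, the DNA-binding part of GABP, differed by 0.22 ± 0.09 (adjusted p = 0.095) and by -0.26 ± 0.13 (adjusted p = 0.153).

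Germline genes outside the cluster that are also silenced through promoter methylation were read as a second frame for the Rhox values. This list shares Dazl, Ddx4, Mael and Sycp1 with the germ cell markers above, so the lists are not independent. Of 20 such autosomal genes tested in the mESC, 3 rose, 8 fell and 9 did not pass, with a median of -0.17, against 17.4% of all genes higher and 14.2% lower. The meiotic cohesin gene Smc1b fell by 1.02 ± 0.10 (adjusted p = 3.74e-05) and the synaptonemal complex gene Sycp1 by 0.95 ± 0.12 (adjusted p = 0.000195), while Dazl, a germ cell RNA-binding protein, rose by 0.53 ± 0.11 (adjusted p = 0.00399). Of 21 tested in the iPSC, 2 rose, 15 fell and 4 did not pass, with a median of -1.06, against 20.2% higher and 15.4% lower. Dazl fell by 4.07 ± 0.16 (adjusted p = 6.5e-08), Sycp1 fell by 3.35 ± 0.18 (adjusted p = 6.56e-07) and Tex101, a sperm surface protein, by 4.18 ± 0.26 (adjusted p = 1.78e-06), while Hormad1, a meiotic chromosome axis protein, rose by 0.47 ± 0.12 (adjusted p = 0.0168). The 2 risers were 0 without null-labelled replicate 1 or wild-type replicate 1 and 1 without wild-type replicate 2. The count of fallen genes in the mESC was 4 in slide row 1 alone.

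Other X-linked genes of testis and placenta were counted in the same way. In the mESC 1 of 16 rose, 6 fell and 9 did not pass, with a median of -0.21 and with 17.4% of all genes higher and 14.2% lower. The placental homeobox gene Esx1 fell by 0.99 ± 0.14 (adjusted p = 0.00033) and the RNA export factor gene Nxf3 by 1.37 ± 0.13 (adjusted p = 2.78e-05), and Nr0b1, a nuclear receptor of pluripotent cells, rose by 0.65 ± 0.09 (adjusted p = 0.000486). In the iPSC 3 of 19 rose, 10 fell and 6 did not pass, with a median of -1.24 and with 20.2% of all genes higher and 15.4% lower. Among the Xlr genes, Xlr4b fell by 6.28 ± 0.13 (adjusted p = 1.54e-09) and Xlr4a fell by 4.72 ± 0.11 (adjusted p = 2.14e-09), and Esx1 rose by 0.88 ± 0.20 (adjusted p = 0.00759). The Xlr genes are copies of each other that probes may not separate. The risers in the iPSC were 1 without null-labelled replicate 1 or wild-type replicate 2, and the fallen genes in the mESC were 3 in slide row 1 alone.

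**Figure D4:**
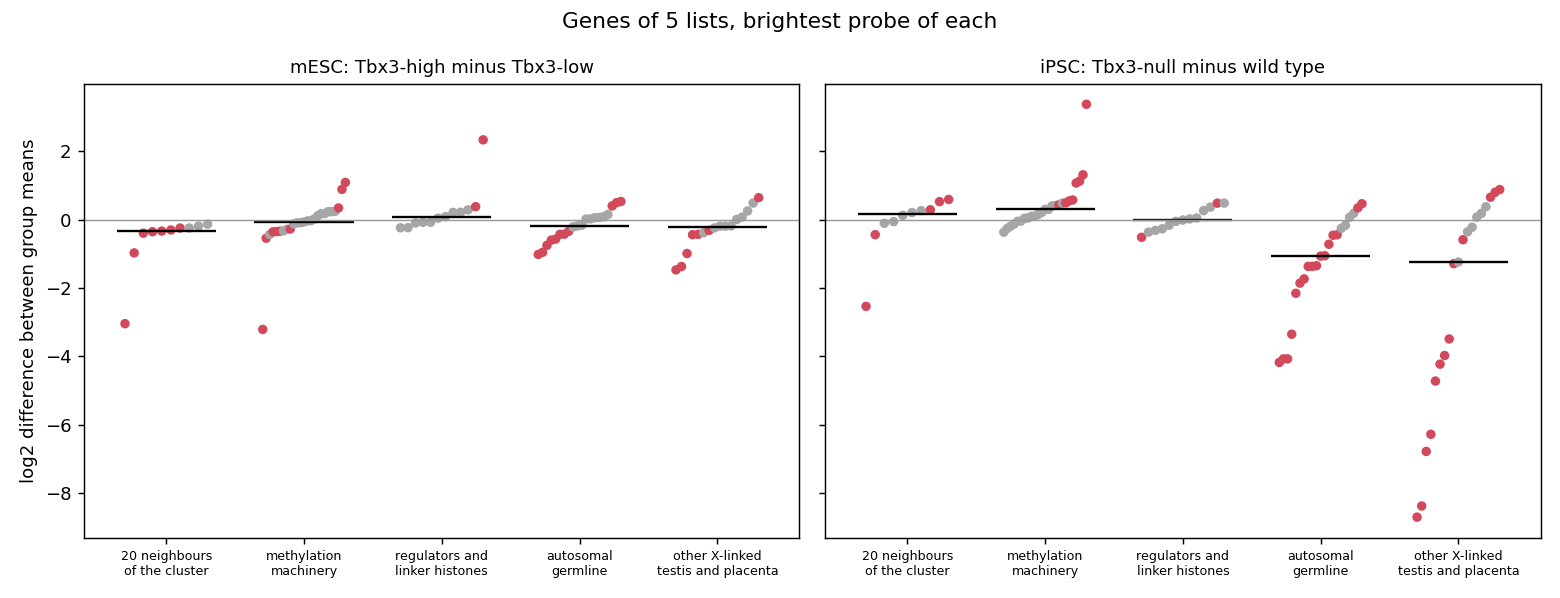
Log2 differences of the tested genes in 5 lists read beside the Rhox genes, mESC and iPSC in separate panels, each gene by its brightest probe. Red points passed at an adjusted p under 0.05, grey points did not, and the line is the list's median; the 2 germline and X-linked lists have medians of -1.06 and -1.24 in the iPSC.

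The other marker lists were set beside the Rhox values as well. Of 10 Sertoli cell markers, Amh, Fshr, Sox9 and Cldn11 were above background on no array in Tbx3-high mESC or in either iPSC group. The summed Sertoli signal, 24.4 to 41.4 in Tbx3-low and 25.3 to 47.1 in Tbx3-high mESC and 23.7 to 24.8 in null-labelled and 35.9 to 38.5 in wild-type iPSC, came mostly from the Rhox8 repeat probe. Fibroblast markers summed to 3.47 to 3.65 in Tbx3-low and 4.44 to 29.2 in Tbx3-high mESC, where Tbx3-high replicate 2 held the highest value through Thy1. For that array the Rhox6 and Rhox9 levels given above were within the range of the other Tbx3-high arrays. Endoderm markers summed to 2.32 to 2.74 in Tbx3-low and 2.66 to 3.90 in Tbx3-high mESC, where 3 of 9 rose and 0 fell, and to 0.640 to 0.667 in null-labelled and 0.828 to 0.867 in wild-type iPSC, where 1 of 9 rose and 4 fell. Their part in the Rhox values was not tested.

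The genes whose pattern over the 12 arrays was most like the mean of the 6 chosen probes, after the mean of each cell type was taken off, were Mmel1 (Pearson r = 0.994), Gbp3 (0.993), Ms4a10 (0.992), Krt9 (0.988), Hecw2 (0.986) and Gbp2 (0.985) among 16949 genes. The arrays share their groups and scaling, so these values are a description. Because the 6 chosen genes differ from each other in direction, separate profiles were added after their values were seen. Those most like the mean of Rhox6 and Rhox9 were led by Nrk (0.994), an X-linked kinase gene of the placenta, at -3.00 in the mESC and 1.12 in the iPSC. Those most like 6 Rhox2 and Rhox4 probes, with Rhox4e left out, were led by Tcim (0.980). They included the X-linked Scml2 (0.974), a germline Polycomb gene, at -0.56 and -2.19. Both names were picked after the values were seen.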

How the data were processed

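RNA of 12 samples was measured on single-colour Agilent arrays. Per the labels' protocols, RNeasy kits gave the RNA, of which 50 ng was labelled with Cy3 (Low Input Quick Amp Kit). As recorded per the file headers, Feature Extraction 10.7.3.1 made the processed signal of each spot, an intensity with background subtracted that is not scaled between arrays, and stored the mean and local background intensity with it. The authors deposited a series table of log2 values, whose scaling and centring stay unknown (medians 6.58 to 6.61; direction shared with the mean signal, r at least 0.9988). It served as an alternative only.

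Levels are log2 of the processed signal minus the 75th percentile of the array; outlier spots were left missing and spots of 1 probe averaged. A probe was tested when 1 of the compared groups had it well above background on all its arrays. limma 3.58.1 (R 4.3.3) fitted 4 group means over 12 arrays with Benjamini-Hochberg adjustment over all probes tested; "rose", "fell" and "passed" mean an adjusted p under 0.05. Tables and drawings used Python 3.11.15, pandas 2.3.3 and matplotlib 3.10.9. The fit was tested on simulated data. Each probe had 1 spread shared by the 4 groups, so every SE and p-value draws on all 12 arrays. Precision is limited by the number of arrays.

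Names came from the files and a RefSeq table (GRCm38.p6, used for names and gene order), in which accessions named 27656 probes, symbols 3401 and synonyms 307, leaving 24317 unnamed. Every Rhox probe is named, and from each list, per comparison, genes among the 4 of smallest adjusted p in each direction, with Gabpa, Dnmt1, Dnmt3a, Dnmt3b, Dnmt3l, Zbtb33 and H1f0 whatever their result. The Rhox members, the lists and this rule were chosen with earlier results of these data known. In all, 24 alternative settings were run: quantile normalisation, normexp (offset 50) on mean and background signals, the series table, filters, a signal floor, arrays alone, array weights, replicate and slide-row blocks, slide rows alone and leaving out each array.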

Additional observations from a re-analysis of the deposited data

Results flagged for a closer look

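Single arrays stood apart from the rest of their group for 1 of the Rhox probes. Rhox4a in the Tbx3-low mESC replicate 4 was at a log2 level of -1.07, beside -3.44 to -3.21 on the other 3 arrays, with a gap of 0.903 of the group's range. In the Tbx3-high mESC, Rhox4a of replicate 3 was at -6.40 beside -5.03 to -4.80, a gap of 0.857 of the range. That array was not above background for this probe, and only 1 of 4 in its group was. Both gaps exceed the critical value of Dixon's test, and 34 groups were searched, of which chance alone would mark about 1 in 20. None of the 6 chosen probes was marked.

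The difference between the mESC contrast (Tbx3-high minus Tbx3-low) and the iPSC contrast (wild type minus null-labelled) passed the limma test for 6 other Rhox probes. The log2 values were -4.36 for Rhox2c, -3.16 for Rhox2e, -4.01 for the 4-copy Rhox2h probe, -5.77 for Rhox4a, -1.16 for Rhox4e and -5.48 for Rhox4g. Rhox4a and Rhox4g passed the filter only through arrays that enter this difference with a minus sign. For them a rise was hardly possible. Cell type and slide cannot be told apart in this difference.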

How the results depend on the processing

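The mESC comparison called 7946 probes, which fell to 3875 in slide row 1 alone and 3549 in row 2 alone, where fewer arrays entered; without single arrays the counts were 6633 to 7292. The iPSC comparison called 10398 probes (6952 to 8480 without single arrays), and its split of 5673 higher and 4725 lower became 3482 and 4402 in the iPSC arrays alone. The difference between the contrasts called 8508 (5703 to 7957). With the replicate number as a block the counts were 8007, 9529 and 7396. Numbers paired arrays with r of 0.112, 0.122, 0.0963 and 0.0675 in the mESC and 0.00695 in the iPSC. Not every array correlated best with its own number, so a number was not taken as a pairing. In the mESC every pair within a slide row had a positive r (0.0351 to 0.188). Every pair across rows had a negative r (-0.152 to -0.0438). With the slide row as a block the mESC comparison called 9410 probes and the difference between contrasts 9884. Rhox6 kept its direction over 20 mESC alternatives (-3.55 to -3.14) and 13 iPSC alternatives (0.86 to 1.21), and Rhox9 likewise (-3.61 to -3.04 and 0.88 to 1.23).

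Values near 0 turned their sign, in no tested case past the threshold, and the cause was not tested. For Rhox3f in the mESC these were -0.0093 with quantile normalisation, -0.0044 with normexp, -0.039 in the series table, -0.095 in slide row 1 and -0.12 without Tbx3-high replicate 4. For Rhox7 in the mESC the value was 0.023 with normexp and ran from -0.26 to 0.024 without single arrays, and in the iPSC it was 0.027 with quantile normalisation, 0.046 with normexp, 0.0090 in the series table and -0.27 to 0.14 without single arrays. For Rhox1 in the mESC, -0.04 as reported with no test, the values ran from -0.16 to 0.089 over 20 alternatives and were above 0 in 6 of them. For Rhox8 without the repeat it was 0.16 in slide row 2 of the mESC. The difference between contrasts turned to 0.069 with normexp and ran from -0.35 to 0.057 without single arrays for Rhox7, and to 0.024 with normexp and up to 0.056 without single arrays for this Rhox8 probe. Normexp moved the median of all iPSC probes to 0.11. Slide rows apply to the mESC alone, and the difference between contrasts had no fit within 1 cell type.

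Dim probes limit the Rhox4 and Rhox2c values in the mESC, and 2 arrays a group limit every iPSC value.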

Other observations

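Further genes most like the mean of Rhox6 and Rhox9 over the 12 arrays, a profile added after the values were seen, were Plbd1, Gm4035, Cd2, Trim12a and Duxbl2, with Pearson r of at least 0.991. Gm4035 was at -3.44 in the mESC and 1.28 in the iPSC, and Duxbl2, a double homeobox gene, at -2.58 and 1.03 (log2 differences of brightest probes). Those most like the Rhox2 and Rhox4 probes without Rhox4e, besides Tcim and Scml2, were Gm15085, Ccdc73, Pnliprp2 and Anapc10, with r of at least 0.972. These values describe 12 arrays in 4 groups and carry no test. Among the Sertoli cell markers, Wt1, a transcription factor of Sertoli and other cells, fell by 1.70 ± 0.16 (SE, limma adjusted p = 2.28e-05) in the mESC and rose by 3.23 ± 0.23 (adjusted p = 5.75e-06) in the iPSC, and Dmrt1, a germ and Sertoli cell factor, fell by 1.36 ± 0.08 (adjusted p = 1.06e-06) and rose by 0.81 ± 0.12 (adjusted p = 0.000581). Both were picked after their values were seen. Of 5 markers of this list tested in the mESC, 2 fell, 0 rose and 3 did not pass, beside 14.2% of all genes lower. Of 6 tested in the iPSC, 3 rose, 0 fell and 3 did not pass, beside 20.2% of all genes higher. The Rhox8 repeat probe, also of this list, differed by 0.18 and -0.77 and did not pass.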
